A study of Homo sapiens with 6 samples.

Results

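The bins of the 3′ untranslated region (3′ UTR, the stretch of a messenger after the stop codon) are described here for every transcript with a row in all 3 deposited tables of a ribosome profiling study. These are 17641 transcript rows of 20708 listed in any table, each with 100 3′ UTR bins that run from the stop end (bin 1) to the far end (bin 100). Every row has the same number of bins and 3′ UTR lengths were not read here. Bins are thus relative places along a 3′ UTR and not distances in bases. Membership used no measured value. Of the rows, 17454 carry a gene name, for 9572 genes.

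The cells were CHL-1, a human melanoma line kept in culture, and the ribosome-protected RNA of 6 libraries was sequenced. The groups hold 2 libraries each: CHL-1 given 10 mM AZC (a proline analog that is built into proteins) and 20 µM MG132 (a proteasome inhibitor) for 20 minutes; CHL-1 edited by CRISPR at SNORD50A/B, a pair of small nucleolar RNA genes; and parental CHL-1, left untreated. In each group 1 library is labelled as rRNA removed and 1 is not. All cells were lysed in the presence of cycloheximide, a drug that stalls ribosomes on the messenger. The labels do not say whether the edited line is 1 clone or a pool. Each group has 1 table, in which its libraries cannot be separated. There is thus no replicate and no test, and every difference below is one between single tables.

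A translating ribosome stops at the stop codon, is released by termination factors and is split by ABCE1, so the 3′ UTR normally carries few ribosome footprints. Footprints can lie there when a ribosome reads through a stop codon, when it has ended translation and was not yet recycled, or when something other than a ribosome protected the RNA. The 3′ UTR is also where many regulatory proteins and microRNAs bind. Bins do not record the reading frame, so these kinds of footprint were not told apart. No 3′ UTR sequence is printed, since no genome of the files' build was used here.

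Depth was computed from the deposited log2 values and is read here as the number of sequenced bases that cover a bin, since no source used here states the unit. Levels are given as ppm, the depth per 1000000 bases of the table's total, and a footprint of 30 bases adds 0.0817 ppm after AZC + MG132, 0.0512 with CRISPR editing and 0.0633 for parental cells. The total was 367.3 Mb with AZC + MG132, 586 in CRISPR-edited cells and 474 in the parental line, where Mb stands for 1000000 bases. The member rows held 22.4 Mb under AZC + MG132, 26.3 in the CRISPR line and 20.6 in parental cells of this in 3′ UTR bins, and 286.2 Mb after AZC + MG132, 493 with CRISPR editing and 403 for parental cells in coding bins. Depth read in this way counts bases and not reads, so the number of distinct fragments behind a value is unknown. Transcript rows can share bases, which then count in each row and again in the totals. Of the melanocyte markers, SOX10, a neural crest transcription factor, had a coding depth of 255.1 ppm with AZC + MG132, 293.6 in CRISPR-edited cells and 327.7 in the parental line. MLANA was listed at 0 in every table, and PMEL, TYR and TYRP1 had no row.

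Footprints after the stop codon were more abundant, relative to coding footprints, under AZC + MG132. Most of the difference lay beyond the bins next to the stop codon, a relative place and not a distance in bases. Over all 17641 rows, 3′ UTR depth relative to coding depth came to 7.84% under AZC + MG132, 5.33% in the CRISPR line and 5.10% in parental cells. Few rows weighed heavily on these values: the 1% of rows with the highest 3′ UTR depth held 59.8% after AZC + MG132, 59.8% with CRISPR editing and 61.7% for parental cells. Without them the ratio was 3.60% with AZC + MG132, 2.40% in CRISPR-edited cells and 2.18% in the parental line. With 1 transcript per gene it was 4.69% under AZC + MG132, 3.49% in the CRISPR line and 3.11% in parental cells. The AZC + MG132 value was the highest of the 3 in each of these sets.

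The rows are not separate measurements. Of the 16026 rows with any 3′ UTR depth, 9388 had a 3′ UTR profile identical to that of another row, and 9889 distinct profiles were left. The other 1615 rows had no 3′ UTR depth in any table. To compare genes, 1 transcript per gene was taken, the one with the highest coding depth, and 6574 genes had a coding depth at or above the lower quartile of rows in all 3 tables. No 3′ UTR value enters this choice.

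Over these 6574 genes the 10 bins next to the stop codon, called the stop end below, differed little between tables. Relative to coding depth they held 1.72% after AZC + MG132, 1.78% with CRISPR editing and 1.55% for parental cells. Bins 11 to 100 held 2.03% with AZC + MG132, 0.855% in CRISPR-edited cells and 0.830% in the parental line. Some depth in bins 11 to 100 was seen for a share of genes of 59.5% under AZC + MG132, 33.3% in the CRISPR line and 41.6% in parental cells. The AZC + MG132 table had the most genes with depth there.

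Along the 3′ UTR the gap between AZC + MG132 and parental widened towards the far end. In the same 6574 genes the ratio of AZC + MG132 to parental depth, each taken relative to coding depth, was 1.11 in bins 1 to 10, 2.14 in bins 11 to 20, 2.47 in bins 31 to 40 and 2.15 in bins 51 to 60. It was 4.17 in bins 81 to 90 and 3.95 in bins 91 to 100. The ratio of CRISPR to parental depth was 1.15 in bins 1 to 10 and 1.10 in bins 11 to 20, and lay between 0.938 and 1.07 in the windows beyond. In every table the far end was lower than the bins after the stop end. Bins 11 to 20 held 0.422% after AZC + MG132, 0.217% with CRISPR editing and 0.197% for parental cells of coding depth, and bins 91 to 100 held 0.135% with AZC + MG132, 0.0342% in CRISPR-edited cells and 0.0343% in the parental line.

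**Figure D1:**
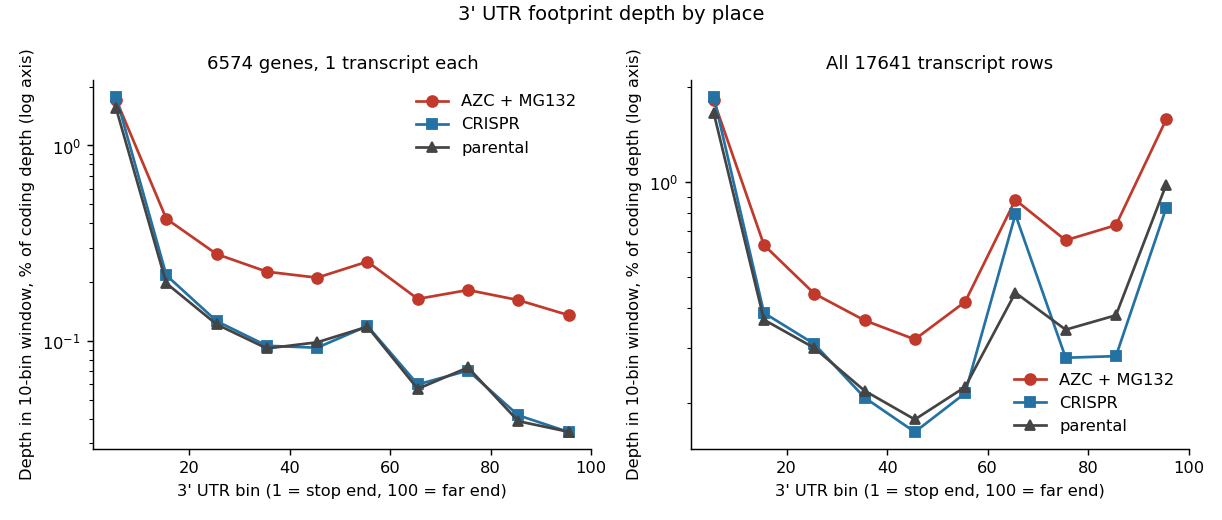
Depth in each 10-bin window of the 3′ UTR as a percent of coding depth (log axis), against the place of the window from the stop end to the far end, for the AZC + MG132 (circles), CRISPR (squares) and parental (triangles) tables. In 6574 genes with 1 transcript each (left) the tables lie close together at the stop end and AZC + MG132 lies above the other two beyond it; over all 17641 rows (right) a few rows lift the windows at bins 61 to 70 and 91 to 100.

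The share of 3′ UTR depth at the stop end differed in the same way. In the 6574 genes it was 45.8% under AZC + MG132, 67.5% in the CRISPR line and 65.1% in parental cells. Within single genes, over the 2263 genes with a 3′ UTR depth of at least 300 in every table, the median share was 44.4% after AZC + MG132, 79.1% with CRISPR editing and 77.2% for parental cells. The spread between genes was wide, with lower quartiles of 17.4% with AZC + MG132, 27.2% in CRISPR-edited cells and 28.4% in the parental line. The share was lower under AZC + MG132 than in parental cells for 72.4% of these genes and higher for 20.9%. Between the CRISPR line and parental cells it was lower for 40.9% and higher for 42.1%. The centre of the 3′ UTR depth lay at a median bin of 23.6 under AZC + MG132, 9.17 in the CRISPR line and 9.88 in parental cells.

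More of the 3′ UTR was covered under AZC + MG132, at a lower unscaled depth per covered bin. Over the 3063 genes compared one by one below, the median number of covered 3′ UTR bins was 14 after AZC + MG132, 6 with CRISPR editing and 8 for parental cells, of 100 bins. The median depth per covered bin was 59.9 bases with AZC + MG132, 163.5 in CRISPR-edited cells and 87.97 in the parental line. These depths are not scaled to the table totals, which differ. Coding bins of the same genes had the same order, with 78.05 bases with AZC + MG132, 150.4 in CRISPR-edited cells and 105.8 in the parental line. The 5′ UTR of the 6574 genes was also deeper under AZC + MG132. Relative to coding depth it held 18.5% under AZC + MG132, 12.1% in the CRISPR line and 10.97% in parental cells. The part of this in the 3′ UTR difference was not tested.

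Genes were then compared one by one. A gene entered where its 3′ UTR depth, scaled to the mean table total and averaged over the 3 tables, was at least 300 bases, which 3063 of the 6574 genes met. Just inside this limit were FAM32A (300.1), DEPTOR (300.7) and MDC1 (300.7), and just outside TAGLN3 (299.7), GATD3 (298.7) and NEK2 (298.6). The change of a gene is the log2 ratio between 2 tables of 3′ UTR over coding depth, with 30 bases added to each depth. A gene counts as past 2-fold where the change is 1 or more in size, a measure of size alone. A gene can enter through a high value in 1 table, so the counts over the 3063 genes are descriptions and stand beside counts over genes chosen on other values.

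For AZC + MG132 against parental, the 3′ UTR to coding ratio was 2-fold or more higher in 1172 genes (38.3%) and 2-fold or more lower in 150 (4.9%), with a median log2 change of 0.66. In bins 11 to 100 alone it was higher in 1849 genes (60.4%) and lower in 5.35%, with a median of 1.52. Of the 3063 genes, 14.3% had no depth there under AZC + MG132, 43.3% in the CRISPR line and 33.7% in parental cells. In 703 genes depth was seen there under AZC + MG132 and not in parental cells. The size of such a change depends on the 30 bases added. At the stop end the ratio was higher in 624 (20.4%) and lower in 12.1%, with a median of 0.16. Among the 2705 genes with a parental 3′ UTR depth of at least 300, a choice that favours high parental values, bins 11 to 100 were higher in 1430 (52.9%) and lower in 7.84%, with a median of 1.14. The stop end had a median of -0.03 among those genes, so the direction of the small difference there depended on how genes were chosen. Without any minimum of 3′ UTR depth, 52.5% of the 6574 genes had a higher ratio in bins 11 to 100 under AZC + MG132 and 12.5% a lower one, and the others had no depth there in either table.

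For CRISPR against parental the ratio was 2-fold or more higher in 529 genes (17.3%) and 2-fold or more lower in 10.9%, with a median log2 change of 0.22. Among the 2705 genes chosen on the parental table, 8.69% were higher and 15.6% lower, with a median of 0.04. The balance of higher and lower genes thus turned with the choice of genes. In bins 11 to 100 the ratio was higher in 600 genes (19.6%) and lower in 655 (21.4%), with a median of -0.01. At the stop end 555 (18.1%) were higher and 426 (13.9%) lower, with a median of 0.19. The balance turned there too: among the 2705 genes 11.4% were higher and 17% lower, with a median of 0.05, and among the 6574 genes 19.1% and 20%.

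For CRISPR against AZC + MG132 the ratio was 2-fold or more higher in 8.03% of genes and 2-fold or more lower in 998 (32.6%), with a median of -0.48. In bins 11 to 100, 6.3% were higher and 1795 (58.6%) lower, with a median of -1.46. At the stop end 529 (17.3%) were higher and 600 (19.6%) lower, with a median of 0.05. The 3 comparisons share tables and are not independent of each other.

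**Figure D2:**
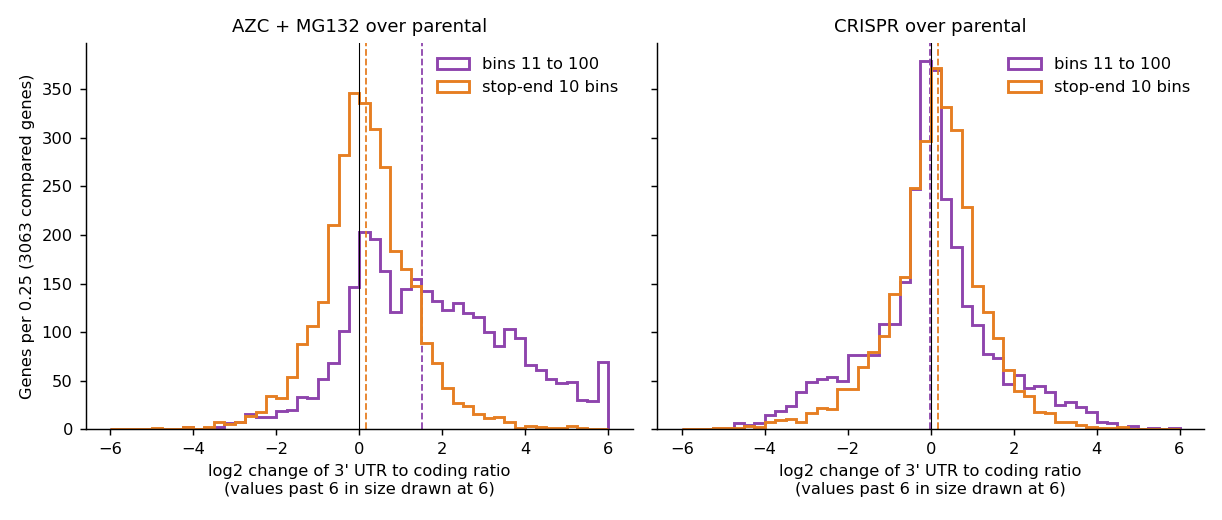
Distribution of the log2 change of the 3′ UTR to coding ratio over the 3063 compared genes, for AZC + MG132 over parental (left) and CRISPR over parental (right), with bins 11 to 100 and the stop-end 10 bins drawn separately; dashed lines are medians and values past 6 in size are drawn at 6. The curve for bins 11 to 100 on the left has its median at 1.52, while the other curves have medians from -0.01 to 0.19.

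The difference in bins 11 to 100 was seen at all levels of coding depth. With the compared genes cut into 3 equal groups by coding depth, the median change for AZC + MG132 against parental was 1.21 in the lowest, 1.56 in the middle and 1.98 in the highest group. For CRISPR against parental these medians were 0.04, -0.01 and -0.04. Coding depth itself was 2-fold or more higher under AZC + MG132 than in parental cells in 0.522% of the 3063 genes and 2-fold or more lower in 3.04%. Among the 1354 compared genes whose span overlaps no other RefSeq gene, the median in bins 11 to 100 was 1.73 for AZC + MG132 against parental and -0.01 for CRISPR against parental.

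Some abundant messengers show the pattern in single profiles. Others, such as HSP90AB1, HSP90B1, RPL18 and TPT1, described below, do not. GAPDH, a glycolytic enzyme, had 10.6 ppm after AZC + MG132, 0.534 with CRISPR editing and 0.204 for parental cells in bins 11 to 100. At its stop end the order was another one, with 29.6 ppm with AZC + MG132, 60.4 in CRISPR-edited cells and 37.7 in the parental line. PPIA, the prolyl isomerase cyclophilin A, had 57.7 ppm under AZC + MG132, 0.812 in the CRISPR line and 0.827 in parental cells in bins 11 to 100. Most of the AZC + MG132 depth there lay next to the stop end, with 45.6 ppm after AZC + MG132, 0.812 with CRISPR editing and 0.768 for parental cells in bins 11 to 20. The stop end of PPIA held 113.7 ppm with AZC + MG132, 49.9 in CRISPR-edited cells and 44.9 in the parental line.

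TMSB10, a small actin-binding protein, had 148.8 ppm under AZC + MG132, 6.62 in the CRISPR line and 3.02 in parental cells in bins 11 to 100. Its stop end held 56.95 ppm after AZC + MG132, 50.5 with CRISPR editing and 42.5 for parental cells, so the difference lay beyond it. PTMA, the acidic nuclear protein prothymosin alpha, had 37.1 ppm with AZC + MG132, 2.67 in CRISPR-edited cells and 1.97 in the parental line in bins 11 to 100. Its stop end was lowest under AZC + MG132, with 45.6 ppm under AZC + MG132, 115.8 in the CRISPR line and 88.4 in parental cells. ACTB, a cytoskeletal actin with near copies that can share its reads, had 5.32 ppm after AZC + MG132, 0.589 with CRISPR editing and 2.35 for parental cells in bins 11 to 100. In these 5 genes AZC + MG132 gave the highest level beyond the stop end, and the CRISPR and parental levels lay within 2-fold of each other for PPIA and PTMA but not for GAPDH, TMSB10 and ACTB.

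**Figure D3:**
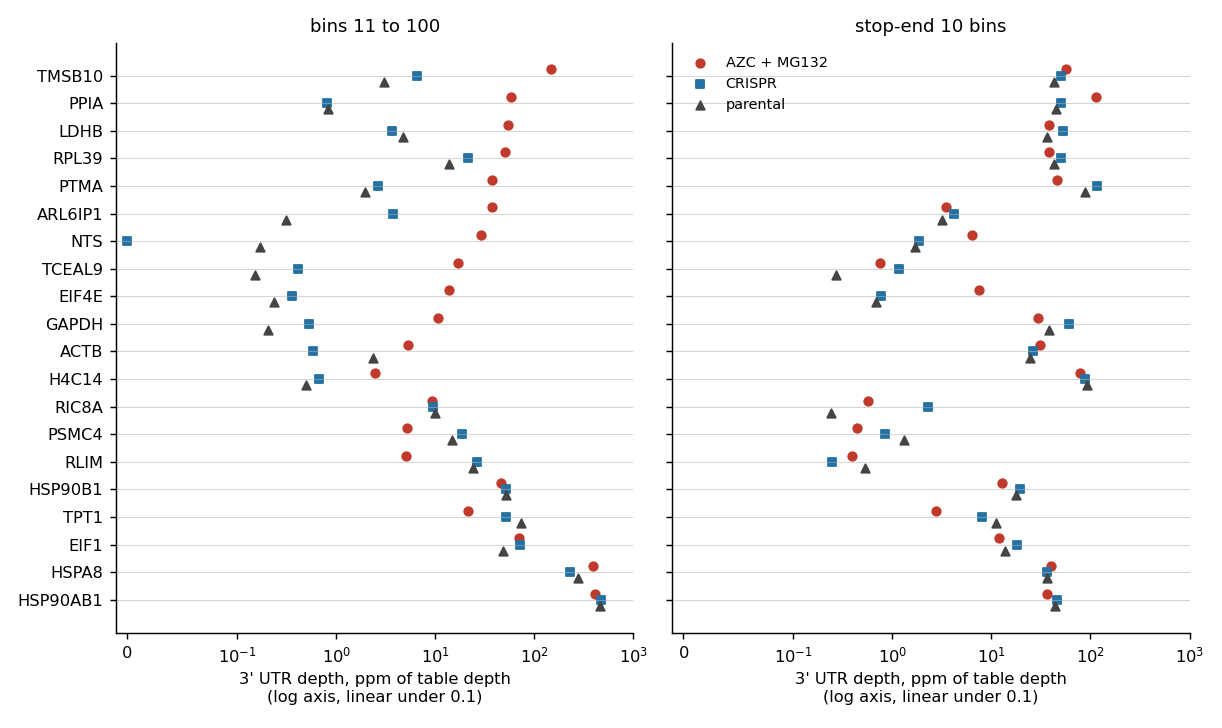
3′ UTR depth in ppm of table depth (log axis, linear under 0.1) of 20 named genes, in bins 11 to 100 (left) and in the stop-end 10 bins (right), for the AZC + MG132 (circles), CRISPR (squares) and parental (triangles) tables. From TMSB10 down to H4C14 the circle lies to the right of the other symbols in bins 11 to 100, while RLIM, PSMC4 and TPT1 have it on the left and HSP90AB1, HSP90B1 and RIC8A show all 3 symbols close together.

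The largest changes towards higher ratios for AZC + MG132 against parental, among the 370 genes with a mean scaled 3′ UTR depth of at least 3000, fell on 5 genes. These 5, like EIF4E and NTS described next, reached that mean through AZC + MG132 alone, with scaled depths of at most 889.8 in the CRISPR and parental tables, so the choice itself favours a high ratio. TCEAL9, an X-linked member of the TCEAL family, had 17.7 ppm with AZC + MG132, 1.59 in CRISPR-edited cells and 0.425 in the parental line in its 3′ UTR, a log2 change of 5.22. Its depth under AZC + MG132 lay towards the far end, with 4.45 ppm under AZC + MG132, 0 in the CRISPR line and 0 in parental cells in bins 71 to 80. The other genes were PPIAL4G, with a change of 6.15, and PPIAL4D, PPIAL4E and PPIAL4F, with 5.07 each. They are near copies of PPIA and of each other, so their reads cannot be told apart from those of PPIA.

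EIF4E, the protein that binds the cap of messengers at initiation, had 21.5 ppm after AZC + MG132, 1.13 with CRISPR editing and 0.925 for parental cells in its 3′ UTR. Its coding depth was 42.1 ppm with AZC + MG132, 65.7 in CRISPR-edited cells and 50.9 in the parental line, lowest where the 3′ UTR was highest. The 3′ UTR to coding ratio of EIF4E was 51.1% under AZC + MG132, 1.72% in the CRISPR line and 1.82% in parental cells. The span of EIF4E overlaps the pseudogene TBCAP3 in the RefSeq annotation, and whether reads of another gene were placed there was not tested. NTS, the precursor of the peptide neurotensin, had 35.5 ppm after AZC + MG132, 1.85 with CRISPR editing and 1.87 for parental cells in its 3′ UTR. The window with most of it under AZC + MG132 was bins 11 to 20, with 18.6 ppm with AZC + MG132, 0 in CRISPR-edited cells and 0.171 in the parental line. For CRISPR against AZC + MG132 the largest changes towards lower ratios were those of PPIAL4G (-5.53), EIF4E (-4.82) and NTS (-4.33).

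Lower ratios under AZC + MG132 were led by genes of other kinds. RLIM, a nuclear ubiquitin ligase, had 5.49 ppm under AZC + MG132, 26.8 in the CRISPR line and 24.5 in parental cells in its 3′ UTR, a log2 change of -2.13 for AZC + MG132 against parental and 2.49 for CRISPR against AZC + MG132. Bins 91 to 100 held 3.29 ppm after AZC + MG132, 24.7 with CRISPR editing and 22.9 for parental cells, and the span of RLIM overlaps the pseudogene PABPC1P3 in the RefSeq annotation. The gene PABPC1 itself, the poly(A)-binding protein, had a coding depth of 52.05 ppm with AZC + MG132, 317.5 in CRISPR-edited cells and 337.4 in the parental line; whether its reads were placed in RLIM was not tested. PSMC4, an ATPase subunit of the proteasome, had 5.59 ppm under AZC + MG132, 19.6 in the CRISPR line and 16.2 in parental cells (-1.45 for AZC + MG132 against parental). CAPZB, an actin-capping subunit, had 3.62 ppm after AZC + MG132, 7.66 with CRISPR editing and 9.63 for parental cells (-1.22), most of it at the stop end in each table. YWHAB, a 14-3-3 protein, had 7.12 ppm with AZC + MG132, 12.2 in CRISPR-edited cells and 17.7 in the parental line (-1.19), also at the stop end. RIC8A, a chaperone of G protein alpha subunits, stood at -1.27, with 9.87 ppm under AZC + MG132, 11.9 in the CRISPR line and 10.1 in parental cells in its 3′ UTR. The tables of RIC8A differed more in coding depth, with 20.2 ppm after AZC + MG132, 7.80 with CRISPR editing and 8.59 for parental cells. The span of RIC8A overlaps the protein-coding gene SIRT3. Scaled depths of RLIM (2612), PSMC4 (2660) and CAPZB (1722) lay under 3000 with AZC + MG132 and over 3000 in both other tables. The choice by mean depth thus favours a low ratio under AZC + MG132 for these genes. YWHAB and RIC8A lay over 3000 in every table.

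**Figure D4:**
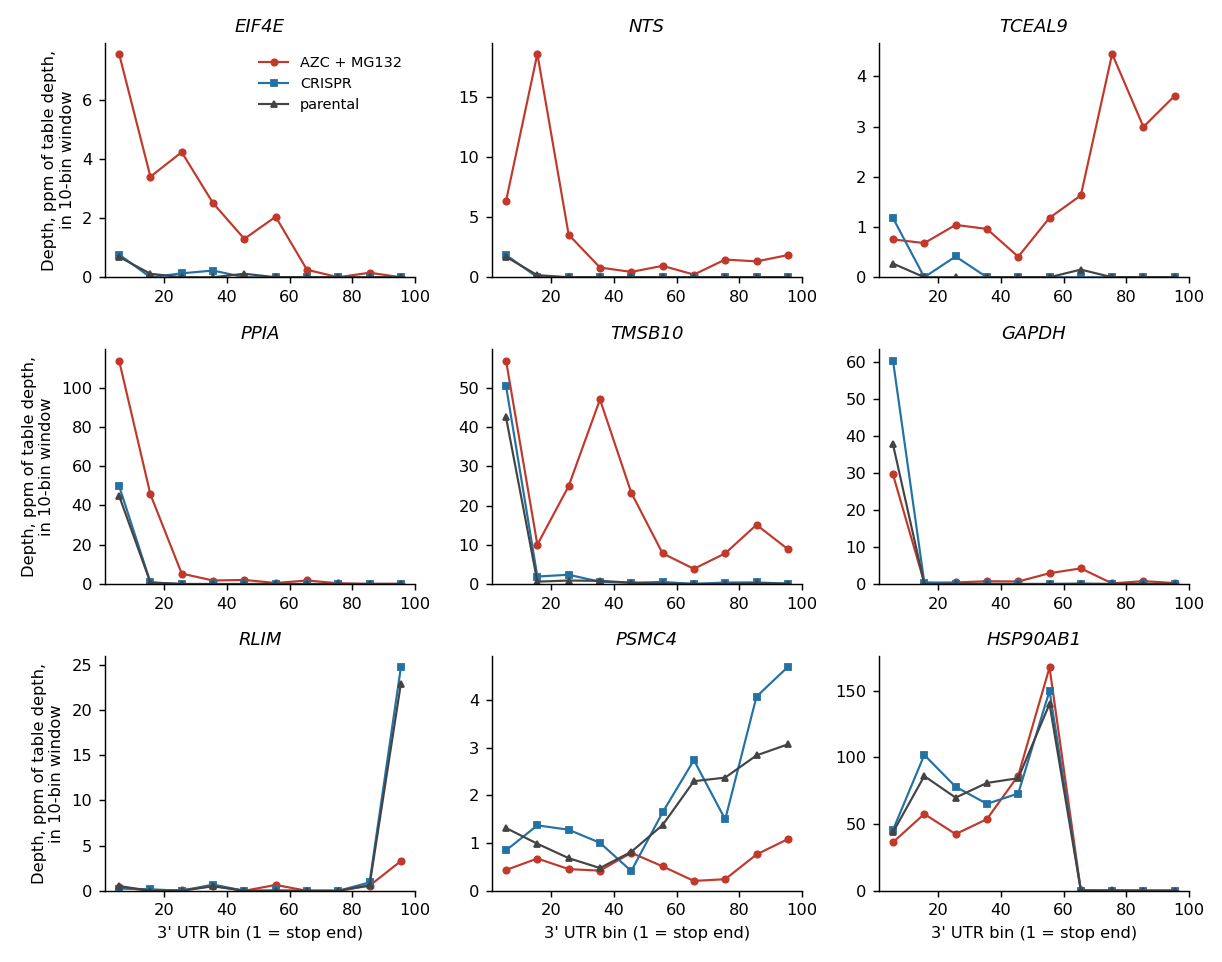
Depth in ppm of table depth in 10-bin windows along the 3′ UTR of 9 named genes, from the stop end (bin 1) to the far end, in the AZC + MG132 (circles), CRISPR (squares) and parental (triangles) tables; each panel has its own vertical axis. EIF4E, NTS, TCEAL9, PPIA, TMSB10 and GAPDH carry depth beyond the stop end mainly under AZC + MG132, RLIM has 1 far-end window that is high in the CRISPR and parental tables, and HSP90AB1 carries depth to bin 60 in all 3.

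Between the CRISPR line and parental cells the largest changes were smaller. TCEAL9 led the higher side at 1.79, with 1.59 ppm in the CRISPR line and 0.425 ppm in parental cells. AGK, a mitochondrial lipid kinase, had 9.75 ppm in the CRISPR line and 4.36 ppm in parental cells (1.53). STMP1, a mitochondrial micropeptide, had 11.1 ppm in the CRISPR line and 3.90 ppm in parental cells (1.42). These levels are low in both tables. ARL6IP1, a protein that shapes the endoplasmic reticulum, had 7.91 ppm in the CRISPR line and 3.48 ppm in parental cells (1.41). In ARL6IP1 the tables differed most in bins 71 to 80, with 28.1 ppm with AZC + MG132, 3.75 in CRISPR-edited cells and 0.312 in the parental line. TUBA1C, an alpha tubulin with near copies that can share its reads, had 10.3 ppm in the CRISPR line and 4.58 ppm in parental cells (1.37). TUBA1C reached the mean scaled depth of 3000 through the CRISPR table alone. Its scaled depths were 2570 with AZC + MG132, 4903 in CRISPR-edited cells and 2179 in the parental line. Parental scaled depths of AGK (2075), STMP1 (1855) and ARL6IP1 (1656) also lay under 3000, so the choice favours high ratios here too.

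The lower side of CRISPR against parental was led by TBC1D15, a GTPase-activating protein for Rab GTPases, with 4.63 ppm in the CRISPR line and 5.52 ppm in parental cells in the 3′ UTR (-1.31). Its coding depth was 28.8 ppm in the CRISPR line and 13.8 ppm in parental cells, a larger difference than that of its 3′ UTR. RPS9, a protein of the small ribosomal subunit, had 7.98 ppm in the CRISPR line and 24.8 ppm in parental cells (-1.31), with most of it at the stop end. UBE2C, a ubiquitin-conjugating enzyme of mitosis, had 3.53 ppm in the CRISPR line and 11.6 ppm in parental cells (-1.27), and ZNF99, a zinc finger protein, had 4.34 ppm in the CRISPR line and 6.04 ppm in parental cells (-1.07). TBC1D15 overlaps the pseudogene MRS2P2 and ZNF99 the pseudogene BNIP3P34, and whether reads of other genes were placed there was not tested. ATF4, a transcription factor that drives stress genes, had 24.1 ppm under AZC + MG132, 0.358 in the CRISPR line and 0.515 in parental cells in its 3′ UTR. Coding depth of ATF4 differed alongside, with 692 ppm after AZC + MG132, 51.8 with CRISPR editing and 33.5 for parental cells. The change of its ratio was 1.02 for AZC + MG132 against parental and -1.09 for CRISPR against parental. The CRISPR and parental 3′ UTR levels of ATF4 are each worth fewer than 10 footprints of 30 bases. ATF4 reached the mean scaled depth of 3000 through AZC + MG132 alone, with 170.3 in the CRISPR line and 245.2 in parental cells. Scaled depths of TBC1D15 and ZNF99 also lay under 3000 in both of these tables. That of UBE2C lay under 3000 in the CRISPR line alone, at 1678.

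Genes of a shared role are counted against the share over all compared genes, which in bins 11 to 100 was 60.4% higher and 5.35% lower for AZC + MG132 against parental, and 19.6% higher and 21.4% lower for CRISPR against parental. A share near these values says nothing particular about a list, and the short lists give coarse shares. The higher count for AZC + MG132 against parental rose with coding depth. It was 555 of 1021 genes in the lowest group of coding depth, 622 in the middle and 672 in the highest. The lists were not matched for coding depth or for 3′ UTR length. In a shorter 3′ UTR each bin spans fewer bases. Whether footprints at the stop codon reach bins 11 to 100 there was not tested. The machinery of translation comes first. Of 86 ribosomal protein genes with a row, 84 were compared. For AZC + MG132 against parental 66 (78.6%, against 60.4% of all compared genes) were 2-fold or more higher in bins 11 to 100 and 1 was lower, with a median of 2.31 against 1.52 over all compared genes. Pooled over the 86 with enough coding depth, bins 11 to 100 held 2.12% with AZC + MG132, 0.594% in CRISPR-edited cells and 0.733% in the parental line of coding depth. For CRISPR against parental 16 were higher and 17 lower. RPL39, a small protein of the large subunit, had 50.6 ppm under AZC + MG132, 21.5 in the CRISPR line and 13.7 in parental cells there. RPL18, also of the large subunit, was highest in parental cells, with 79.1 ppm after AZC + MG132, 62.4 with CRISPR editing and 123.8 for parental cells spread over the whole 3′ UTR. The first 20 coding bins of RPL18 were at or near 0, a feature described below for other rows.

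Of 34 compared translation factors, 23 (67.6%, against 60.4% of all compared genes) were 2-fold or more higher in bins 11 to 100 for AZC + MG132 against parental and 3 lower. In the CRISPR line against parental cells, 4 were higher and 6 lower. EIF1, which takes part in start codon choice, had 69.8 ppm with AZC + MG132, 72.4 in CRISPR-edited cells and 48.2 in the parental line there. TPT1, the growth-related protein TCTP, had 21.3 ppm under AZC + MG132, 51.3 in the CRISPR line and 73.6 in parental cells there, and a coding depth of 87.96 ppm after AZC + MG132, 276.2 with CRISPR editing and 278.7 for parental cells. Of 7 compared termination and ribosome rescue factors, 3 (42.9%, against 60.4% of all compared genes) were higher and 0 lower for AZC + MG132 against parental. Between the CRISPR line and parental cells, 3 were higher and 1 lower. ABCE1, which splits the ribosome after termination, had 1.73 ppm with AZC + MG132, 2.19 in CRISPR-edited cells and 2.28 in the parental line at its stop end. MCTS1, which takes part in releasing ribosomal subunits from the messenger, had 3.46 ppm under AZC + MG132, 2.19 in the CRISPR line and 2.71 in parental cells over its 3′ UTR. At such levels a gene rests on few footprints.

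Among genes reported in the literature to be read past their stop codon, 5 of 9 with a row were compared. For AZC + MG132 against parental 3 (60%, against 60.4% of all compared genes) were 2-fold or more higher in bins 11 to 100 and 0 lower, and for CRISPR against parental 2 and 0. LDHB, a lactate dehydrogenase subunit with a readthrough form, had 53.9 ppm after AZC + MG132, 3.67 with CRISPR editing and 4.69 for parental cells there. At its stop end it had 38.04 ppm with AZC + MG132, 52.6 in CRISPR-edited cells and 36.1 in the parental line, so the tables differed mainly beyond it. MDH1, a malate dehydrogenase with a readthrough form, had 2.41 ppm under AZC + MG132, 1.74 in the CRISPR line and 1.88 in parental cells at the stop end and 1.29 ppm after AZC + MG132, 1.42 with CRISPR editing and 0.0652 for parental cells in bins 11 to 100. MTCH2, a mitochondrial outer membrane protein, had no depth in bins 11 to 100 in any table, and 1.64 ppm with AZC + MG132, 2.04 in CRISPR-edited cells and 1.18 in the parental line at the stop end. VEGFA and AGO1 fell under the depth minimum, with at most 0.348 ppm over the 3′ UTR in any table.

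Selenoproteins use a 3′ UTR element to place selenocysteine at a UGA codon, and 8 of 16 with a row were compared. For AZC + MG132 against parental 7 (87.5%, against 60.4% of all compared genes) were 2-fold or more higher in bins 11 to 100 and 0 lower, and for CRISPR against parental 0 were past 2-fold. SELENOF, a selenoprotein of the endoplasmic reticulum, had 5.15 ppm under AZC + MG132, 1.05 in the CRISPR line and 0.605 in parental cells there. SELENOS, whose selenocysteine lies next to its end, had 8.72 ppm after AZC + MG132, 7.18 with CRISPR editing and 7.57 for parental cells at the stop end. Beyond it SELENOS had 0.558 ppm with AZC + MG132, 0 in CRISPR-edited cells and 0 in the parental line. Pooled over 12 selenoprotein genes with enough coding depth, bins 11 to 100 held 2.74% under AZC + MG132, 1.72% in the CRISPR line and 0.814% in parental cells of coding depth, over a set that includes genes not compared one by one.

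Replication-dependent histone messengers end in a stem-loop in place of a poly(A) tail. Of 27 compared, 22 (81.5%, against 60.4% of all compared genes) were 2-fold or more higher in bins 11 to 100 for AZC + MG132 against parental and 0 lower. Set against parental, in the CRISPR line 3 were higher and 8 lower. Levels beyond the stop end were low all the same: over 32 genes they held 0.653% after AZC + MG132, 0.213% with CRISPR editing and 0.182% for parental cells of coding depth. H4C14 and H4C15, H4 genes with equal 3′ UTR depths in these tables, each had 77.8 ppm with AZC + MG132, 87.996 in CRISPR-edited cells and 92.97 in the parental line at the stop end. Beyond it they had 2.47 ppm under AZC + MG132, 0.668 in the CRISPR line and 0.495 in parental cells. The counts above take H4C14 and H4C15 as separate genes, although equal depths are not separate measurements.

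The 2 compared genes with the highest mean 3′ UTR level over the 3 tables were chaperones, whose 3′ UTR to coding ratio differed little between tables. HSP90AB1, a cytosolic HSP90, had 444 ppm after AZC + MG132, 513 with CRISPR editing and 505 for parental cells in its 3′ UTR, and a ratio of 14.8% with AZC + MG132, 15.4% in CRISPR-edited cells and 16.3% in the parental line. HSPA8, the constitutive HSP70, had 429.7 ppm under AZC + MG132, 266.99 in the CRISPR line and 311.9 in parental cells. The coding depth of HSPA8 was 3384 ppm after AZC + MG132, 2219.8 with CRISPR editing and 2237 for parental cells, and the 3′ UTR to coding ratio of HSPA8 was 12.7% with AZC + MG132, 12.03% in CRISPR-edited cells and 13.9% in the parental line. In both rows depth ran on past the last coding bin and then fell. Some depth remained further on, up to bin 97 in HSP90AB1 and bin 100 in HSPA8 under AZC + MG132. HSP90AB1 had 167.4 ppm under AZC + MG132, 149.9 in the CRISPR line and 139.97 in parental cells in bins 51 to 60 and 0.329 ppm after AZC + MG132, 0.0256 with CRISPR editing and 0.270 for parental cells in bins 61 to 70. HSP90B1, the HSP90 of the endoplasmic reticulum, had 46.5 ppm with AZC + MG132, 51.6 in CRISPR-edited cells and 51.4 in the parental line in bins 11 to 100, mostly before bin 40. In TPT1, PSMC4 and RPL18 the first 20 coding bins were at or near 0 while the 3′ UTR bins held depth, and 82 compared genes had under 1% of coding depth in those 20 bins in every table. Whether the bin boundary lies at the stop codon in these rows was not tested; without the 82 genes the median change in bins 11 to 100 was 1.51 for AZC + MG132 against parental.

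Over the 25 compared cytosolic chaperones, 15 (60%, against 60.4% of all compared genes) were 2-fold or more higher in bins 11 to 100 for AZC + MG132 against parental and 2 lower, and for CRISPR against parental 3 were higher and 6 lower. Pooled over all 30 chaperones with enough coding depth, these bins held 5.14% after AZC + MG132, 5.09% with CRISPR editing and 5.32% for parental cells of coding depth. Pooled without HSP90AB1 and HSPA8, 28 chaperones with enough coding depth held 0.548% under AZC + MG132, 0.506% in the CRISPR line and 0.484% in parental cells of coding depth there. Of 18 compared genes of folding in the endoplasmic reticulum, 13 (72.2%, against 60.4% of all compared genes) were higher and 0 lower for AZC + MG132 against parental. With CRISPR against parental, 5 were higher and 3 lower. CALR, the lectin chaperone calreticulin, had 0.599 ppm after AZC + MG132, 0.752 with CRISPR editing and 0.358 for parental cells there, against 17.7 ppm with AZC + MG132, 19.8 in CRISPR-edited cells and 16.99 in the parental line at its stop end. The pooled values of both chaperone lists lay closer together between tables than those of ribosomal proteins.

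Genes of the integrated stress response come next. Of 9 compared genes of the integrated stress response, 6 (66.7%, against 60.4% of all compared genes) were 2-fold or more higher in bins 11 to 100 for AZC + MG132 against parental and 0 lower. In the CRISPR line against parental cells, 1 was higher and 3 lower. PSAT1, a serine synthesis enzyme, had 2.04 ppm under AZC + MG132, 0.506 in the CRISPR line and 0.0633 in parental cells there, against 16.99 ppm after AZC + MG132, 29.6 with CRISPR editing and 24.3 for parental cells at the stop end. SLC7A5, an amino acid transporter, had 3.69 ppm with AZC + MG132, 1.78 in CRISPR-edited cells and 3.78 in the parental line in bins 11 to 100. DDIT3, a transcription factor of the same response, was not compared, and had 5.34 ppm under AZC + MG132, 0 in the CRISPR line and 0.241 in parental cells over its 3′ UTR.

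Of 6 compared immediate early genes, 4 (66.7%, against 60.4% of all compared genes) were higher and 0 lower for AZC + MG132 against parental. Between the CRISPR line and parental cells, 3 were higher and 0 lower. FOSL1, a subunit of AP-1, had 1.67 ppm after AZC + MG132, 1.37 with CRISPR editing and 0.118 for parental cells in bins 11 to 100. MYC, a growth-promoting transcription factor, had 0.897 ppm with AZC + MG132, 0 in CRISPR-edited cells and 0 in the parental line there.

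Of 17 compared proteins that bind 3′ UTRs, 13 (76.5%, against 60.4% of all compared genes) were 2-fold or more higher in bins 11 to 100 of their own messengers for AZC + MG132 against parental and 1 lower. Set against parental, in the CRISPR line 4 were higher and 4 lower. PUM2, a repressor that binds Pumilio elements, had 3.15 ppm under AZC + MG132, 0.0561 in the CRISPR line and 0.152 in parental cells there. PCBP2, a poly(C)-binding protein, had 1.58 ppm after AZC + MG132, 0.828 with CRISPR editing and 1.29 for parental cells there. The coding depth of PCBP2 was lower under AZC + MG132, with 146.6 ppm with AZC + MG132, 453 in CRISPR-edited cells and 418 in the parental line. Of the iron-regulated genes 2 were compared, and 1 (50%, against 60.4% of all compared genes) was 2-fold or more higher in bins 11 to 100 for AZC + MG132 against parental. TFRC, the transferrin receptor with iron-responsive elements in its 3′ UTR, had 1.84 ppm under AZC + MG132, 1.16 in the CRISPR line and 1.59 in parental cells there. FTH1, the ferritin heavy chain, whose element lies in the 5′ UTR, had 0.975 ppm after AZC + MG132, 0.00171 with CRISPR editing and 0 for parental cells there.

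Of 6 compared collagen and matrix genes 3 (50%, against 60.4% of all compared genes) were higher and 2 lower for AZC + MG132 against parental, and 2 and 2 for CRISPR against parental. PLOD2, a lysyl hydroxylase, had 0.174 ppm with AZC + MG132, 0 in CRISPR-edited cells and 0.303 in the parental line in bins 11 to 100, and PLOD1, another, had 0.392 ppm under AZC + MG132, 0.340 in the CRISPR line and 0.177 in parental cells. Of the melanocyte markers 3 were compared and 3 (100%, against 60.4% of all compared genes) were higher for AZC + MG132 against parental, too few genes to read as a trait of the list. S100A1, a calcium-binding protein, had 4.21 ppm after AZC + MG132, 0.0919 with CRISPR editing and 0 for parental cells there, and SOX10 had 1.15 ppm with AZC + MG132, 0 in CRISPR-edited cells and 0.247 in the parental line. Among markers of other cell types, KRT10, a keratin of the epidermis, was not compared, and had 7.24 ppm under AZC + MG132, 7.77 in the CRISPR line and 10.9 in parental cells in the 3′ UTR with at most 1.04 ppm in coding bins.

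Counts over genes chosen by coding depth alone, where no 3′ UTR value enters, stand beside those over compared genes. Of all 6574 such genes, 52.5% had a higher ratio in bins 11 to 100 under AZC + MG132 than in parental cells, by any amount, and 12.5% a lower one. On this count, 67 of 86 ribosomal protein genes were higher and 11 lower, and 26 of 38 translation factors were higher and 7 lower. Among genes of folding and stress, 19 of 30 cytosolic chaperones were higher and 6 lower, 18 of 23 genes of folding in the endoplasmic reticulum were higher and 2 lower, and 9 of 14 genes of the integrated stress response were higher and 3 lower. The higher genes outnumbered the lower ones in each of these lists. As for the rest, 23 of 32 histone genes were higher and 3 lower, 8 of 12 selenoproteins were higher and 1 lower, 17 of 27 proteins that bind 3′ UTRs were higher and 1 lower, and 8 of 13 immediate early genes were higher and 1 lower. For collagen and matrix genes 3 of 15 were higher and 4 lower.

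**Figure D5:**
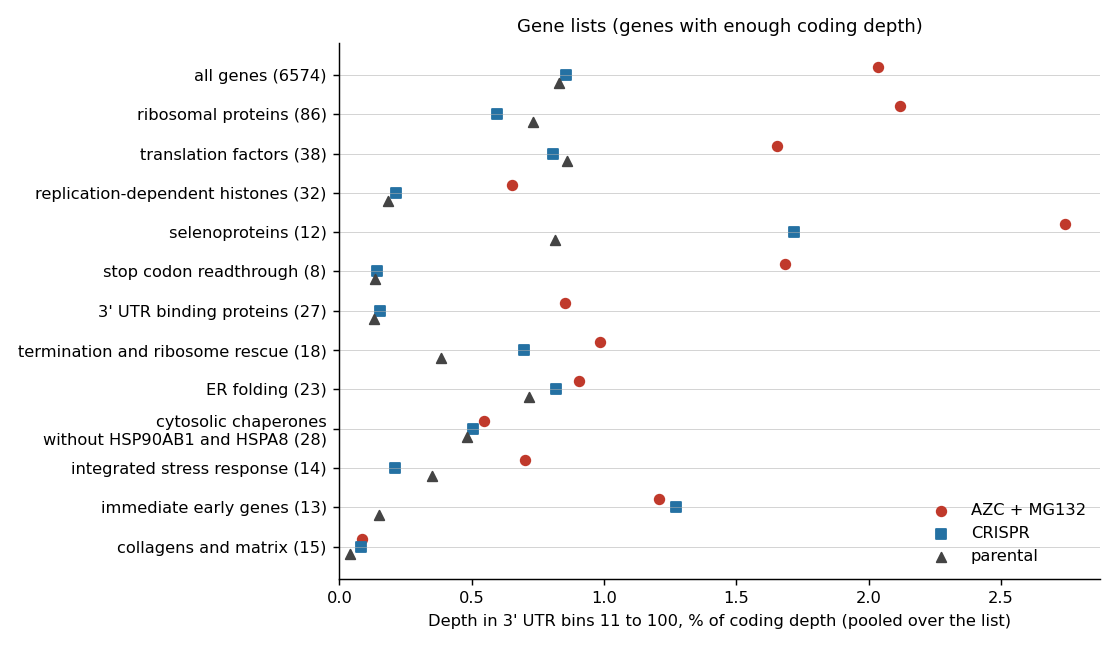
Depth in 3′ UTR bins 11 to 100 as a percent of coding depth, pooled over the genes of each list that had enough coding depth (number in parentheses), for the AZC + MG132 (circles), CRISPR (squares) and parental (triangles) tables. Lists of under 5 genes are not drawn. Cytosolic chaperones are drawn without HSP90AB1 and HSPA8, and with these genes the parental value was the highest. The circle is the rightmost point in each list drawn except the immediate early genes, and its distance from the triangle is widest in selenoproteins, followed by genes with stop codon readthrough and ribosomal proteins. Pooled values weigh deep genes most. Of the 8 readthrough genes, 4 had any depth there under AZC + MG132, and LDHB alone had 53.9 ppm.

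A separate set of rows holds much of the 3′ UTR depth without matching coding depth. In 450 rows, of 170 named genes and of unnamed transcripts, 3′ UTR depth was above coding depth in at least 1 table. Their share of all 3′ UTR depth was 36.4% after AZC + MG132, 42.1% with CRISPR editing and 40.3% for parental cells. Without them the 3′ UTR to coding ratio of the other rows was 4.999% with AZC + MG132, 3.09% in CRISPR-edited cells and 3.05% in the parental line, and 15 of the 170 genes were among the 3063 compared ones. In the RefSeq annotation 59.4% of the 170 genes overlapped a protein-coding gene or pseudogene, against 37.7% of other genes with a mean 3′ UTR depth of at least 300. No source used here says whether counting used the strand, so depth of a gene and of one that overlaps it cannot be told apart.

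The genes with the most such depth, chosen after their values were seen, differed in how widely it was spread. TMC5, which encodes a transmembrane channel-like protein, had 1154 ppm under AZC + MG132, 1377 in the CRISPR line and 666 in parental cells in its 3′ UTR and no coding depth. Bins 61 to 70 held over 99% of it in each table, and TMC5 overlaps the pseudogene RNU4-46P. SNX22, a sorting nexin that overlaps PPIB, the cyclophilin of the endoplasmic reticulum, had 181.7 ppm after AZC + MG132, 288.3 with CRISPR editing and 218.5 for parental cells. Its coding depth was 0.921 ppm with AZC + MG132, 1.22 in CRISPR-edited cells and 0.175 in the parental line. CLEC2D, a lectin-like receptor gene that overlaps the pseudogene NPM1P7, had 459.9 ppm under AZC + MG132, 445 in the CRISPR line and 466 in parental cells. EDARADD, an adaptor of the EDA receptor that overlaps ENO1P1, had 312.9 ppm after AZC + MG132, 344.5 with CRISPR editing and 334.3 for parental cells. It covered 45 bins with AZC + MG132, 41 in CRISPR-edited cells and 45 in the parental line. MRFAP1, which overlaps no other gene, had 161.9 ppm under AZC + MG132, 117.8 in the CRISPR line and 119.1 in parental cells. MRFAP1 covered 89 bins after AZC + MG132, 57 with CRISPR editing and 63 for parental cells. The parental level was the lowest of the 3 for TMC5 and not for the other genes.

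By the mean level over the 3 tables, TRMT5 and RPL36A-HNRNPH2 followed HSP90AB1 and HSPA8 among the compared genes, though not in every table. TRMT5, a tRNA methyltransferase that overlaps SLC38A6, had 140.6 ppm with AZC + MG132, 76.1 in CRISPR-edited cells and 112.6 in the parental line, and bins 71 to 80 held 74.5% under AZC + MG132, 99.9% in the CRISPR line and 99.4% in parental cells of it. RPL36A-HNRNPH2, a transcript that joins 2 neighbouring genes and shares bases with both, had 115.6 ppm after AZC + MG132, 98.7 with CRISPR editing and 95.99 for parental cells.

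Rows without a gene name had a share of all 3′ UTR depth of 33.7% with AZC + MG132, 22.8% in CRISPR-edited cells and 30.6% in the parental line. Most of it was in 3 rows, which held 32.8% under AZC + MG132, 21.8% in the CRISPR line and 29.4% in parental cells. NM_001190452 alone held 18.1% after AZC + MG132, 14.4% with CRISPR editing and 17.9% for parental cells, and over 99% of its 3′ UTR depth lay in bins 91 to 100 in each table. NM_001190702 held 11.4% with AZC + MG132, 6.03% in CRISPR-edited cells and 9.78% in the parental line. With all rows pooled, bins 91 to 100 held 20.1% under AZC + MG132, 15.6% in the CRISPR line and 19.3% in parental cells of 3′ UTR depth. Without the 1% of rows with the most depth they held 3.54% after AZC + MG132, 1.95% with CRISPR editing and 1.81% for parental cells. The far-end peak of the pooled profile is thus that of a few rows, which the comparison of genes does not include.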

How the data were processed

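Ribosome profiling tables of 6 CHL-1 libraries, 2 per group, were read as deposited, with 1 table per condition. Per the submitters' processing notes Bowtie2 and TopHat2 were used with genome build hg19. The sources used here do not state versions or how libraries were pooled, counted and binned. The deposited values are log2(x + 1) with 2 decimals in 400 bins per RefSeq transcript. From the values, 100 bins were read as 5′ UTR, 200 as coding sequence and 100 as 3′ UTR. Depth x was recovered from each value, and in coding bins the deposited value of the row above, which they also contain, was subtracted.

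Gene names and overlapping genes came from the RefSeq gene table of GRCh38.p14. Named genes are the 10 with the highest 3′ UTR depth; the 5 largest changes each way per comparison with parental and the 3 each way for CRISPR against AZC + MG132, at a mean scaled depth of at least 3000; 2 per list; and a fixed set of 12. The members, lists and named-gene rule were chosen with earlier results of these data known, and the split at bin 11 after seeing these tables. The steps were tested on simulated data. Python 3.11.15, numpy 2.4.6, pandas 2.3.3 and matplotlib 3.10.9 were used. No test was run, since each condition has 1 table. One gene that the named-gene rule selects is not reported here.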

Additional observations from a re-analysis of the deposited data

How the results depend on the processing

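No paired analysis was possible because each condition has 1 pooled table whose columns carry no replicate. No library was left out in turn, for the same reason. The limits are those of single tables: the spread between libraries is unknown, depth counts bases and not fragments, and genes with under about 300 bases of 3′ UTR depth rest on few footprints. In every setting below that gives the 3′ UTR to coding ratio of all rows, AZC + MG132 had the highest value. The cause of each shift was not tested.

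The 3′ UTR to coding ratio over all rows was 7.43% with AZC + MG132, 5.16% in CRISPR-edited cells and 4.89% in the parental line with coding bins as deposited. It was 4.69% under AZC + MG132, 3.49% in the CRISPR line and 3.11% in parental cells with 1 transcript per gene and 3.60% after AZC + MG132, 2.40% with CRISPR editing and 2.18% for parental cells without the 1% of rows with the most depth. Without rows over coding depth it was 4.999% with AZC + MG132, 3.09% in CRISPR-edited cells and 3.05% in the parental line, and without the first 5 3′ UTR bins 6.46% under AZC + MG132, 3.802% in the CRISPR line and 3.76% in parental cells. Leaving out the HSP90AB1 and HSPA8 rows gave 7.76% after AZC + MG132, 5.25% with CRISPR editing and 5.004% for parental cells.

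The stop-end share of 3′ UTR depth was 37.6% with AZC + MG132, 51.95% in CRISPR-edited cells and 51.1% in the parental line with 1 transcript per gene and 44.4% under AZC + MG132, 65.5% in the CRISPR line and 64.1% in parental cells without the top 1% of rows. It was 34.7% after AZC + MG132, 57.4% with CRISPR editing and 51.5% for parental cells without rows over coding depth, 23.4% with AZC + MG132, 35.6% in CRISPR-edited cells and 33.1% in the parental line without HSP90AB1 and HSPA8, and 45.3% under AZC + MG132, 59.9999% in the CRISPR line and 59.96% in parental cells as a mean of shares within rows. The far-end share was 3.79% after AZC + MG132, 1.84% with CRISPR editing and 2.62% for parental cells with 1 transcript per gene and 3.54% with AZC + MG132, 1.95% in CRISPR-edited cells and 1.81% in the parental line without the top 1% of rows. It was 2.62% under AZC + MG132, 1.2002% in the CRISPR line and 1.12% in parental cells without rows over coding depth, 20.6% after AZC + MG132, 15.9% with CRISPR editing and 19.8% for parental cells without HSP90AB1 and HSPA8, and 3.01% with AZC + MG132, 1.75% in CRISPR-edited cells and 1.71% in the parental line as a mean within rows.

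Median log2 changes and the share of compared genes past 2-fold in either direction moved as follows. With a pseudocount of 150 the median for AZC + MG132 against parental was 0.60 over the whole 3′ UTR and 1.03 in bins 11 to 100. CRISPR against AZC + MG132 then had -0.97 in bins 11 to 100, and CRISPR against parental had 23.3% of genes past 2-fold there. With 0.5 the medians in bins 11 to 100 were 1.79 for AZC + MG132 against parental and -1.77 for CRISPR against AZC + MG132. Without the first 5 bins the whole 3′ UTR medians were 1.42 for AZC + MG132 against parental, 0.041 for CRISPR against parental and -1.27 for CRISPR against AZC + MG132, the last with 61.8% of genes past 2-fold.

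At a minimum depth of 1200, AZC + MG132 against parental had a median of 0.59 with 37.5% of genes past 2-fold, and 1.85 with 70.3% of genes in bins 11 to 100. CRISPR against parental had 11.7% of genes, 39.5% in bins 11 to 100, where its median turned to 0.042. CRISPR against AZC + MG132 had 32.5% of genes, and 68.4% with a median of -1.80 in bins 11 to 100.

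With no minimum the medians for AZC + MG132 against parental were 0.50 (46.6% of genes) and 0.72 in bins 11 to 100 (50.2% of genes). For CRISPR against parental the median was 0.070 (38.5% of genes, and 29.1% in bins 11 to 100). CRISPR against AZC + MG132 had 47.5% of genes, 50.7% of genes with a median of -0.76 in bins 11 to 100, and a stop-end median that turned to -0.056.

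The next settings were added after seeing the data. With the minimum in the parental table alone, AZC + MG132 against parental had medians of 0.37, 1.14 in bins 11 to 100 and, turned, -0.030 at the stop end. CRISPR against parental had 0.039 and -0.065 in bins 11 to 100, and CRISPR against AZC + MG132 -0.41 and -1.24. Over genes that overlap no other gene, AZC + MG132 against parental had 0.76 (44.2% of genes) and 1.73 (68.5%) in bins 11 to 100. CRISPR against parental had 28.7% and 41.5% of genes past 2-fold, and CRISPR against AZC + MG132 -0.55 (41.9%) and -1.82 (68.6%). This set holds 1354 genes, and the set with no minimum 6574. Scaling tables to coding depth (whole 3′ UTR only), leaving out genes over coding depth and leaving out the 82 genes with an empty coding start moved no count of genes past 2-fold by 1.5 times, for the whole 3′ UTR and bins 11 to 100. The changes of single genes over bins 11 to 100 and at the stop end, with all their settings, and the setting without HSP90AB1 and HSPA8 were also chosen after seeing the data.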

Other observations

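Rows listed in fewer than 3 tables, which the report does not use, held little 3′ UTR depth. There were 768 such rows under AZC + MG132, 2142 in the CRISPR line and 1661 in parental cells. They held 0.632% of the table's 3′ UTR depth under AZC + MG132, 1.25% in the CRISPR line and 0.896% in parental cells. The rows with the most depth were those of FBXL20 under AZC + MG132 (8.37 ppm), PRRG4 in the CRISPR line (4.66 ppm) and CACNA1A in parental cells (5.64 ppm), named here because of these values. A missing row was not read as a depth of 0.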
